A study of Homo sapiens with 8 samples.

Results

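The 10 genes described here encode the slow and the fast fibre forms of 5 proteins of the skeletal muscle contraction and relaxation cycle. They were taken by name: TNNT1, TNNI1, TNNC1, ATP2A2 and MYBPC1 for slow fibres, and TNNT3, TNNI2, TNNC2, ATP2A1 and MYBPC2 for fast fibres. All 10 were found among the 63241 gene rows of the count table. The libraries come from HSC3, an established line of human oral squamous cell carcinoma, by their labels. In the knockdown group (n = 4) the cells received an siRNA against COL1A1 (si-Col1a1), and in the control group (n = 4) the negative control siRNA (si-NC). Cells of both groups got 100 pmol of siRNA with Lipofectamine 3000 and were collected 48 hours later. Whether libraries with the same label were grown as separate cultures is not stated; the p-values below reflect the spread between these libraries alone, and that spread may be technical.

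In striated muscle, calcium released from the sarcoplasmic reticulum binds troponin C, which relieves the block that troponin I places on actin and myosin, while troponin T anchors the complex to tropomyosin. SERCA pumps then return calcium to the reticulum, and myosin-binding protein C tunes the thick filament. Slow and fast fibres draw mainly on different genes for these proteins, though the division is not strict for every gene. The tongue and the walls of the mouth hold both kinds of fibre. ATP2A2 also encodes a SERCA form that is found in most cell types, and TNNC1 also serves the heart.

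The libraries did not match their label alone. A list of 14 squamous epithelial genes took 20.0%, 0.158%, 15.8% and 10.6% of counts in knockdown 1 to 4, and 0.0660%, 7.17%, 2.12% and 6.57% in control 1 to 4. A list of 15 skeletal muscle genes shared by slow and fast fibres (TTN, NEB and ACTA1 among them) took 0.00467%, 3.71%, 0.00602% and 4.32% in knockdown 1 to 4, and 13.7%, 0.409%, 13.3% and 0.00661% in control 1 to 4. Both groups therefore held libraries with much and with almost no muscle RNA, and in bulk RNA fewer cells of a type and less RNA per cell cannot be told apart. Salivary gland genes took 13.7% of counts in knockdown 2 and 11.2% in control 1, and at most 0.0101% in the other 6. The siRNA target COL1A1 stood at 368, 123, 301 and 155 CPM (counts per 1000000 of all counts) in knockdown 1 to 4, and at 88.95, 8183, 476 and 690 in control 1 to 4. The groups overlapped for the target. The table heads the knockdown columns KO, while the labels describe an siRNA, and whether each column holds the cells its label names cannot be settled from these files. Knockdown and control below therefore mean the libraries so labelled. Total counts ran from 30684584 to 61795990 per library.

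The annotation places the members on several chromosomes (GRCh38, GENCODE release 29; the files use hg38, the same assembly). TNNT1 occupies chromosome 19 from 55132794 to 55149354 (minus strand), TNNI1 chromosome 1 from 201403768 to 201429866 (minus strand), and TNNC1 chromosome 3 from 52451102 to 52454070 (minus strand). Of the fast troponins, TNNT3 (1919562 to 1938706) and TNNI2 (1838989 to 1841680) are close neighbours on the plus strand of chromosome 11, and TNNC2 occupies chromosome 20 from 45823214 to 45833745 (minus strand). ATP2A2 (110280756 to 110351093) and MYBPC1 (101568353 to 101686018) are both on the plus strand of chromosome 12. ATP2A1 is on the plus strand of chromosome 16 from 28878405 to 28904509, and MYBPC2 on the plus strand of chromosome 19 from 50432903 to 50466321. ATP2A1 overlaps RABEP2 on the other strand, whose counts reached at most 1099 in any library. The strand setting of the counting is not given in the sources used here, so reads in that overlap cannot be assigned to either gene.

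Start-site sequence was held for 4 of the 10 members (RefSeq, GRCh38.p14; 250 bases before and 50 after the start). One start of each of these 4 genes is shown as a description, and the part of these sequences in the levels below was not tested. In the pump sequences capitals mark each CG, and in those of MYBPC1 and TNNT1 each TATAAA. In order they are ATP2A2 at chr12:110280997-110281296 (plus strand), ATP2A1 at chr16:28878238-28878537 (plus strand), MYBPC1 at chr12:101594721-101595020 (plus strand) and TNNT1 at chr19:55149157-55149456 (minus strand).
ATP2A2: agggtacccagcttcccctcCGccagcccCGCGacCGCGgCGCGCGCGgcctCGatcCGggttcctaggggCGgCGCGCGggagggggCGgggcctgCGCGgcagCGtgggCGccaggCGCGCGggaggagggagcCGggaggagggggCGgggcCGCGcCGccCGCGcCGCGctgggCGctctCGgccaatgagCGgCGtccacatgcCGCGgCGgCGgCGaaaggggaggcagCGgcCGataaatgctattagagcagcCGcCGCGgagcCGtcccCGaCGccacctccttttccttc
ATP2A1: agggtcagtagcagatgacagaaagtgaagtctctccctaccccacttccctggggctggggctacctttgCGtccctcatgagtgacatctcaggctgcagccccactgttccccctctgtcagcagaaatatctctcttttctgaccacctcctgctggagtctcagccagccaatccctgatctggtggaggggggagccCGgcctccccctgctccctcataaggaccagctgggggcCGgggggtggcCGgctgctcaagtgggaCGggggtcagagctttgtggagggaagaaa
MYBPC1: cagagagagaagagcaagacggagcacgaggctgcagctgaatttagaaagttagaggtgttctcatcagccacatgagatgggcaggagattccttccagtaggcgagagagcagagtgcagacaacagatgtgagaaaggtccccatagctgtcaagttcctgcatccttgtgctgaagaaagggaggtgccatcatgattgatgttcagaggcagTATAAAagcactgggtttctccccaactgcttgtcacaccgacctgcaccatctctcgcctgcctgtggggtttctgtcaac
TNNT1: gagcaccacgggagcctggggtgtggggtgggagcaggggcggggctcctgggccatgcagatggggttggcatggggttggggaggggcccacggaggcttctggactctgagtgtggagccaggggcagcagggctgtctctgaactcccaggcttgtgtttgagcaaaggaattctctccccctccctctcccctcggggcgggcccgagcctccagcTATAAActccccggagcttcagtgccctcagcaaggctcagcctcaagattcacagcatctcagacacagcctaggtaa

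The ATP2A2 start held 49 CG dinucleotides, a number reached by 1.6% of the 35116 start-site sequences of the same length, whose median was 14. The ATP2A1 start shown held 5, a number reached by 70.4% of them. A further start of ATP2A1 (28879793 to 28880092) held 35 CG and a further start of ATP2A2 (110280366 to 110280665) held 14, so the contrast concerns the starts shown and not every start of the genes. TATAAA, searched on both strands, occurred once in MYBPC1, with its first base 32 bases before the start, and once in TNNT1, 29 bases before it. It was in none of the 4 pump sequences and in 11.5% of all. CANNTG, the core that myogenic factors bind, had 4 matches in MYBPC1, 3 in the ATP2A1 start shown, 1 in the ATP2A2 start shown and 1 in TNNT1; 68.7% of all sequences held it, and no match overlapped TATAAA. These are matches of letters and not binding sites.

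Among the slow members, TNNT1, the slow troponin T, stood at 4.57, 67.9, 3.57 and 182 CPM in knockdown 1 to 4, and at 589, 30.6, 871 and 2.69 in control 1 to 4. TNNI1, the slow troponin I, stood at 3.99, 185, 1.43 and 350 CPM in knockdown 1 to 4, and at 1507, 88.6, 2243 and 7.0 in control 1 to 4. For both genes control 3 and control 1 were the highest libraries and the groups overlapped. TNNC1, the slow and cardiac troponin C, was at 0.0332, 40.4, 0 and 129 CPM in knockdown 1 to 4, and at 317, 10.3, 452 and 0.0769 in control 1 to 4. MYBPC1, the slow myosin-binding protein C, was at 0.216, 652, 0.11 and 981 CPM in knockdown 1 to 4, and at 3512, 65.9, 3630 and 0.288 in control 1 to 4. These genes all but disappeared in knockdown 1, knockdown 3 and control 4, where TNNC1 had 2, 0 and 4 counts and MYBPC1 13, 4 and 15.

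ATP2A2, the slow fibre and general SERCA pump, was the exception. It stood at 809, 803, 449 and 925 CPM in knockdown 1 to 4, and at 2031, 982, 3555 and 1091 in control 1 to 4. Its highest library was 7.91 times its lowest, against 324 times for TNNT1 and 33088 times for MYBPC1. On this scale every control library lay above every knockdown library. With TMM scaling, which corrects for differences in RNA make-up, ATP2A2 was at 956, 693, 599 and 879 CPM in knockdown and at 2222, 893, 2985 and 1012 in control, and control 2 then fell below knockdown 1. ATP2A2 was the only 1 of the 10 members whose groups did not overlap on CPM of all counts, where 2.35% of the 21192 genes tested had no overlap in either direction 1.47% were lower in every knockdown library and 0.882% higher. On TMM-scaled CPM it was 0 of 10, against 2.52% of genes, 1.22% lower and 1.31% higher in every knockdown library.

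**Figure D1:**
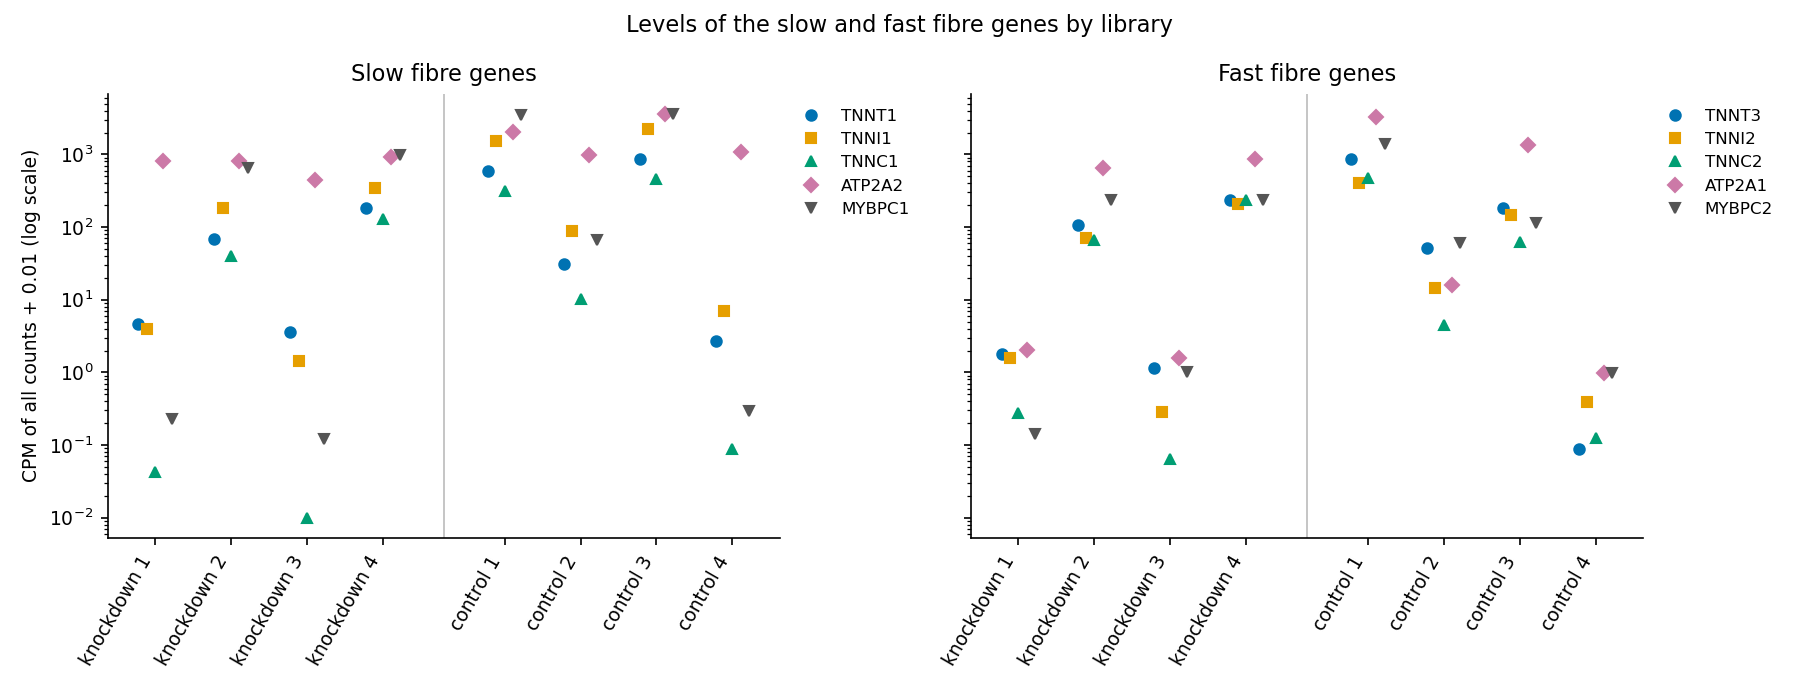
Level of each slow (left) and fast (right) fibre gene in each library, as CPM of all counts plus 0.01 on a log axis; each point is 1 gene in 1 library. ATP2A2 stays between 449 and 3555 CPM, while the other 9 genes drop below 10 CPM in knockdown 1, knockdown 3 and control 4.

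The fast members followed the same libraries. TNNT3, the fast troponin T, was at 1.76, 108, 1.15 and 237 CPM in knockdown 1 to 4, and at 874, 51.6, 181 and 0.0769 in control 1 to 4. TNNI2, the fast troponin I, was at 1.55, 69.6, 0.274 and 205 CPM in knockdown 1 to 4, and at 409, 14.3, 145 and 0.385 in control 1 to 4. Control 1 was the highest library for both, and control 3, which led the slow members, held less than knockdown 4. TNNC2, the fast troponin C, was at 0.266, 65.3, 0.0549 and 234 CPM in knockdown 1 to 4, and at 467, 4.53, 63.2 and 0.115 in control 1 to 4. MYBPC2, the fast myosin-binding protein C, was at 0.133, 232, 0.987 and 233 CPM in knockdown 1 to 4, and at 1389, 59.8, 115 and 0.980 in control 1 to 4. ATP2A1, the fast fibre SERCA pump, was at 2.01, 642, 1.59 and 860 CPM in knockdown 1 to 4, and at 3223, 15.8, 1350 and 0.961 in control 1 to 4. Control 1 was the highest library for all 5 fast genes, and the groups overlapped for each of them.

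Levels of different genes can be set side by side only per length. Per kilobase of coding sequence, TNNI1 had the highest level of the 10 genes in knockdown 2 (331 CPM per kb), knockdown 4 (624), control 1 (2687) and control 3 (3999), and ATP2A2 in control 2 (314). Per kilobase of all annotated exons, which for TNNI1 span 7524 bases against 561 of coding sequence, TNNI1 was at 24.6, 46.5, 200.3 and 298 CPM per kb in the same 4 libraries. ATP2A1 then led in knockdown 2 (139.9) and control 1 (703), TNNC2 in knockdown 4 (268) and MYBPC1 in control 3 (492). The order among members therefore turned on which length was used, and the ratios below are compared between libraries and not between pairs.

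Between the labels, no member passed the test. edgeR's quasi-likelihood test called 0 of the 10 members, and 0% of the 21192 genes tested, at an adjusted p under 0.05. At an unadjusted p under 0.05 there were 0 of the 10 members and 4.78% of all genes. limma-voom called 0 members and 0% of genes, and DESeq2 called 0.523% of the 27904 genes it adjusted and 0 of the 9 members among them, since TNNC2 got no adjusted p. The fitted value was below 0 for 10 of the 10 members and for 53.2% of all genes, and the members rise and fall in the same libraries, so they are not 10 separate observations. The median log2 fold change was -2.25 over the 5 slow members and -1.80 over the 5 fast ones, against -0.05 over all genes tested.

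Fitted changes ran from -1.08 to -2.87 on the log2 scale with wide errors. TNNI1 averaged 135 ± 167 CPM in the knockdown libraries and 962 ± 1098 CPM in the control libraries (SD, n = 4 each). Its log2 fold change was -2.87 (SE 1.86, edgeR adjusted p = 0.981). TNNT1 had a log2 fold change of -2.56 (SE 1.66) and TNNC1 of -2.25 (SE 2.40). ATP2A2 averaged 747 ± 206 CPM in the knockdown libraries and 1915 ± 1191 CPM in the control libraries (SD, n = 4 each). It had the smallest error of the 10, with a log2 fold change of -1.20 (SE 0.59, edgeR unadjusted p = 0.0748, adjusted p = 0.981). The first 3 changes were under 2 times their SE and that of ATP2A2 just over it, and none passed the adjustment. For MYBPC1 the log2 fold change was -2.24 (SE 2.55), for MYBPC2 -2.03 (SE 2.15), for TNNT3 -1.89 (SE 2.02), for ATP2A1 -1.80 (SE 2.23), for TNNI2 -1.23 (SE 1.93) and for TNNC2 -1.08 (SE 2.28). Control 1 set the sign for 4 fast genes: without it the log2 fold change was 0.30 for TNNT3, 0.53 for TNNI2, 1.88 for TNNC2 and 1.08 for MYBPC2. Among the fits that leave out 1 library, the log2 fold changes of the members other than ATP2A2 were lowest without knockdown 4, with -4.05 for TNNI1, -3.96 for TNNT1, -4.01 for TNNC1 and -3.0 for TNNC2. ATP2A1 was at -0.13 without control 1.

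**Figure D2:**
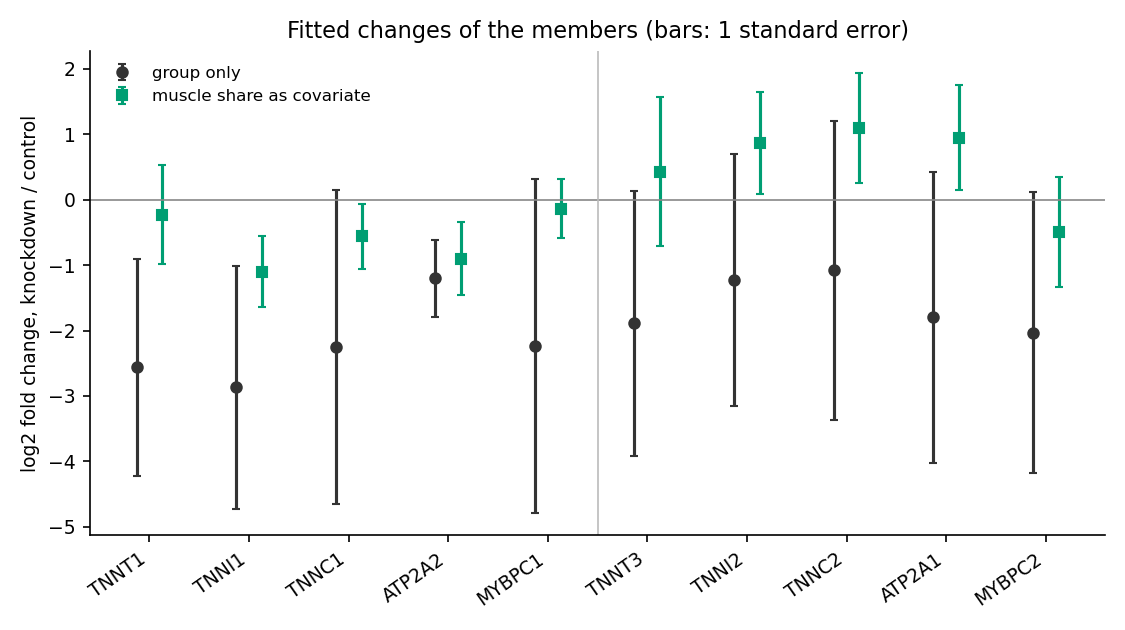
Fitted log2 fold change of knockdown over control for each member with 1 standard error, from the fit of the group alone (circles) and from a fit that also holds the log2 share of counts in 15 shared muscle genes (squares). The circles run from -2.87 to -1.08, and with the muscle term 4 fast genes lie above 0 and the slow genes below it.

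With the log2 share of counts in the 15 shared muscle genes as a covariate, a fit chosen after seeing the data, edgeR called 0 of the 10 members and 0 genes in all. The 5 slow members were then fitted between -1.10 (TNNI1, SE 0.54) and -0.14 (MYBPC1, SE 0.45). ATP2A2 was at -0.90 (SE 0.56). Of the fast members TNNC2 was at 1.10 (SE 0.84), ATP2A1 at 0.95 (SE 0.80), TNNI2 at 0.87 (SE 0.78), TNNT3 at 0.43 (SE 1.14) and MYBPC2 at -0.49 (SE 0.84). The smallest edgeR adjusted p of the 10 was 0.669, for TNNI1.

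The slow to fast ratio was taken within each library, where scaling cancels. Counts of the 5 slow genes over those of the 5 fast genes gave 143, 1.57, 112 and 1.45 in knockdown 1 to 4, and 1.25, 8.07, 5.80 and 437 in control 1 to 4. The highest ratios belonged to the libraries with the least muscle RNA, where ATP2A2 made up 98.9%, 98.9% and 99.1% of the slow counts in knockdown 1, knockdown 3 and control 4. The log2 ratio averaged 3.79 ± 3.69 over knockdown and 3.66 ± 3.60 over control libraries (SD, n = 4 each), a difference of 0.13, far inside either spread. Leaving out each library in turn, the difference ran from -1.0 without knockdown 1 to 1.83 without control 4.

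Without the pumps the ratio was more even. It was 2.38, 1.99, 2.07 and 1.81 in knockdown 1 to 4, and 1.89, 1.50, 14.3 and 6.46 in control 1 to 4. Control 3 and control 4 stood above all other libraries, while control 1 lay within the knockdown values and control 2 below them. As a share of the 8 genes' counts, the slow genes took 70.4% in knockdown 1 (Wilson 95% interval 67.0 to 73.5, counting error only), 66.6% in knockdown 2, 67.4% in knockdown 3 (61.7 to 72.7) and 64.4% in knockdown 4. In control 1 to 4 they took 65.4%, 60.0%, 93.5% and 86.6% (83.6 to 89.1 in control 4). The log2 ratio averaged 1.04 ± 0.16 over knockdown and 2.01 ± 1.53 over control libraries (SD, n = 4 each), and the groups overlapped. The genes behind the slow sum differed between libraries. MYBPC1 gave 20005 of its 29017 counts in knockdown 2 and 35787 of 59904 in knockdown 4. In control 1 to 3 it gave 129203 of 217989, 4070 of 12070 and 117049 of 232053. It gave only 13 of 530 in knockdown 1, 4 of 186 in knockdown 3 and 15 of 523 in control 4. Similar ratios therefore do not mean the same make-up. The score without the pumps was not tested.

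Pair by pair, the 5 ratios were set between the labels by an exact two-sided permutation test over 70 assignments, whose smallest possible p is 0.0286, on log2 ratios with 0.5 counts added. No pair passed after Benjamini-Hochberg adjustment over the 5. For TNNC1 over TNNC2 the log2 ratio averaged -1.65 ± 1.02 over knockdown and 0.73 ± 1.62 over control libraries (SD, n = 4 each), a difference of -2.38, and it was lower in all 4 knockdown libraries (exact permutation p = 0.0286, adjusted p = 0.143). For TNNI1 over TNNI2 it averaged 1.47 ± 0.64 in knockdown and 3.16 ± 1.08 in control, a difference of -1.69 (exact permutation p = 0.0571, adjusted p = 0.143). Both differences were larger than the SD within either label but did not pass the adjustment, and the order of the groups turned on the number added to the counts. The troponin C ratio rests on 2 slow and 16 fast counts in knockdown 1, 0 and 2 in knockdown 3, and 4 and 6 in control 4. Among the libraries with more counts, knockdown 2 at -0.69 lay just below control 1 at -0.56. With 5 counts added the troponin C groups overlapped (exact permutation p = 0.0571). With 0.5 CPM added the troponin C p was 0.0857 and the troponin I groups no longer overlapped (exact permutation p = 0.0286). Over the alternatives the adjusted p ran from 0.0714 to 0.357 for each of these pairs.

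The other pairs differed less between the labels than among libraries of a label. TNNT1 over TNNT3 averaged 0.48 ± 1.18 in knockdown and 1.48 ± 2.71 in control, a difference of -0.99 (exact permutation p = 0.514, adjusted p = 0.857), which was 0.17 without control 4. MYBPC1 over MYBPC2 averaged 0.30 ± 2.29 in knockdown and 1.18 ± 2.83 in control, a difference of -0.88 (exact permutation p = 0.686, adjusted p = 0.857), which was 0.23 without knockdown 3 and 0.39 without control 3. ATP2A2 over ATP2A1 averaged 4.30 ± 4.73 in knockdown and 4.21 ± 4.83 in control, a difference of 0.09 (exact permutation p = 1, adjusted p = 1; SD, n = 4 each for all 3 pairs). The pump difference was -1.35 without knockdown 1, -1.18 without knockdown 3, -1.53 without control 1 and -0.84 without control 3, and 2.07 without control 4.

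**Figure D3:**
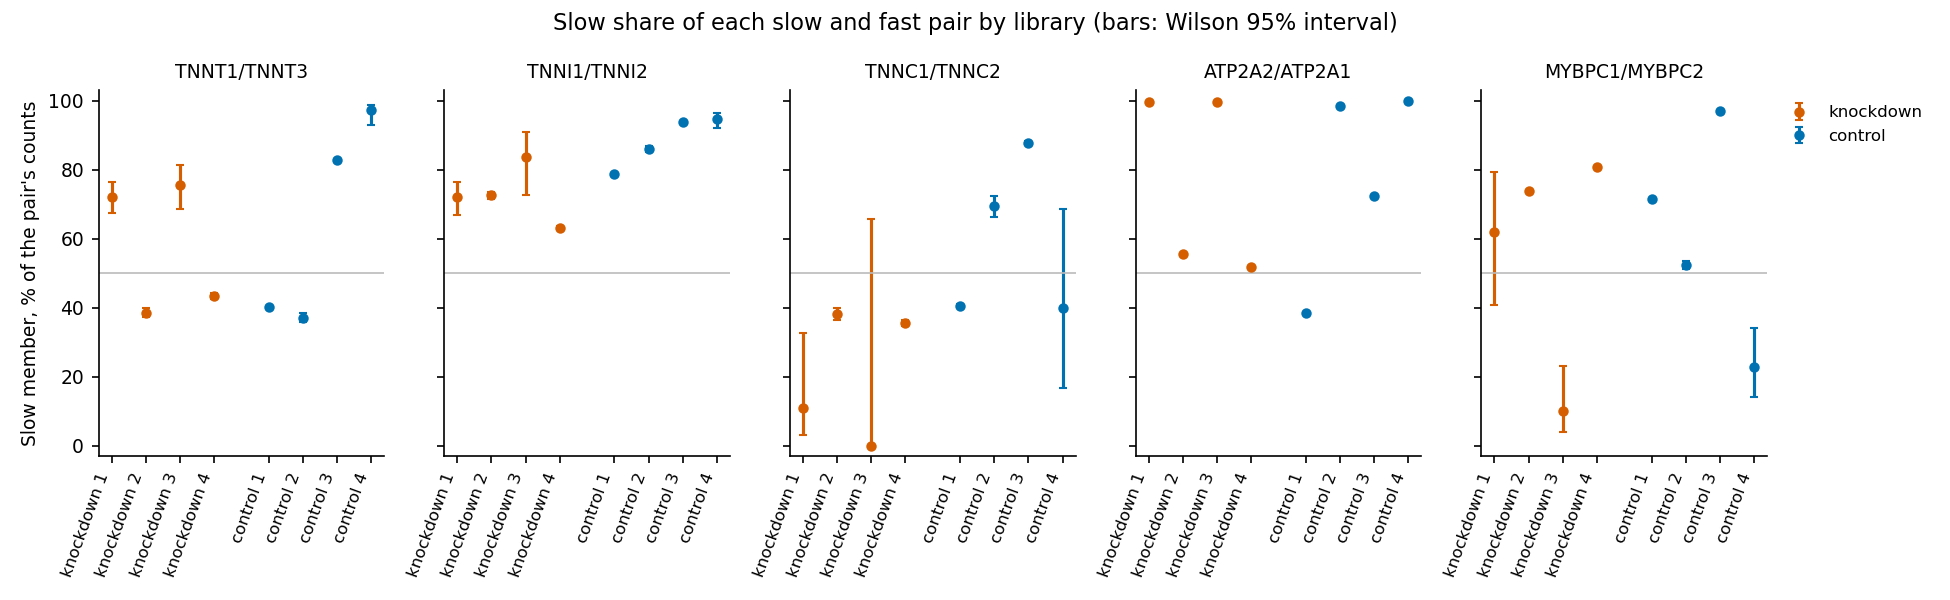
Slow member's share of the counts of each slow and fast pair, in percent, by library, with Wilson 95% intervals (counting error only); the line marks 50%. Control 3 is the most slow of the libraries with deep counts in 4 of the 5 pairs, and the troponin C share of knockdown 3 rests on 2 counts.

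In 5 libraries every member had at least 200 counts, and there the pair ratios can be read closely. Control 3 had more slow than fast counts in every pair, with 4.82 slow counts per fast count for troponin T, 15.5 for troponin I, 7.16 for troponin C, 2.63 for the pumps and 31.5 for the myosin-binding proteins. Counts depend on gene length, and per kilobase of all exons ATP2A1 (294 CPM per kb) exceeded ATP2A2 (259) there. Per kilobase of coding sequence the order was the reverse, with ATP2A2 at 1137 CPM per kb and ATP2A1 at 450. Control 3 had the highest ratio of the 5 libraries in 4 of the 5 pairs. Knockdown 2, knockdown 4 and control 1 resembled each other, with ratios from 0.627 to 0.767 for troponin T, from 0.552 to 0.679 for troponin C, from 1.71 to 3.69 for troponin I, from 0.630 to 1.25 for the pumps and from 2.53 to 4.21 for the myosin-binding proteins. These 3 libraries carry both labels. The slow share of myosin heavy chain counts (MYH7 against MYH1, MYH2 and MYH4) was 20.9% in knockdown 2 and 28.3% in knockdown 4. It was 49.9% in control 1, 6.77% in control 2 and 84.6% in control 3.

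Control 2 was the library in which the pairs pulled apart. It was second to control 3 for troponin I (6.21) and troponin C (2.27), but had the lowest ratio of the 5 libraries for troponin T (0.592) and for the myosin-binding proteins (1.10). Its pump ratio of 62.4 was the highest of the 5, with 982 CPM of ATP2A2 beside 15.8 of ATP2A1. Its MYH7 share was the lowest of the 5. It also had the least muscle RNA of these libraries, 7.17% of counts in squamous genes and 2.12% in 11 fibroblast genes, which took at most 0.410% in any other library. The part of these cells in its ratios was not tested.

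In knockdown 1, knockdown 3 and control 4 the members other than ATP2A2 had from 0 to 364 counts, and the slow and fast genes no longer kept the proportions seen elsewhere. Per 1000 counts of the 15 shared muscle genes, TNNT1 had 97.8 and 59.2 counts in knockdown 1 and knockdown 3 and 40.8 in control 4, against 1.83 to 7.48 in the 5 deeper libraries. TNNI1 had 85.4, 23.7 and 106, against 5.00 to 21.7. TNNT1 and TNNI1 thus stood higher relative to these 15 genes where their counts were scarce, and TNNC1 and MYBPC1 did not. TTN held 58.4%, 28.9% and 32.1% of the 15 genes' counts in knockdown 1, knockdown 3 and control 4. In the deeper libraries it held 63.2% to 79.3%, so the make-up of the 15 genes' counts differed between the sets of libraries. TNNC1 had 0.711, 0 and 1.16, against 1.09 to 3.41, and MYBPC1 had 4.62, 1.82 and 4.37, against 16.1 to 27.4. Of the fast genes, TNNT3 had 37.7 and 19.1 in knockdown 1 and knockdown 3, but 1.16 in control 4, which held 4 of its counts (1.36 to 12.6 in the deeper libraries). TNNI2 had 33.1 and 4.56 in knockdown 1 and knockdown 3 and 5.82 in control 4, against 1.09 to 4.74. ATP2A1 had 43.0, 26.4 and 14.6 in the same libraries, against 3.85 to 23.6. Some fast genes were thus also above their range in the deeper libraries, in knockdown 1 above all. The troponin T ratio of control 4, 35 slow counts per fast count, therefore rests on 140 counts of TNNT1 and 4 of TNNT3. Of the 15 shared muscle genes 1 was at 0 in knockdown 3 and 0 were in the other 2 libraries. ACTA1, skeletal actin, had 16 and 6 counts in knockdown 1 and knockdown 3 and 5 in control 4, and CKM, muscle creatine kinase, had 36, 10 and 30. NEB had 362, 610 and 260 counts in these libraries and MB, myoglobin, had 85, 170 and 96. The 15 genes thus differed in how many counts were left. Squamous genes took 20.0% and 15.8% of counts in knockdown 1 and knockdown 3 and 6.57% in control 4, and the part of non-muscle cells in these levels was not tested.

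**Figure D4:**
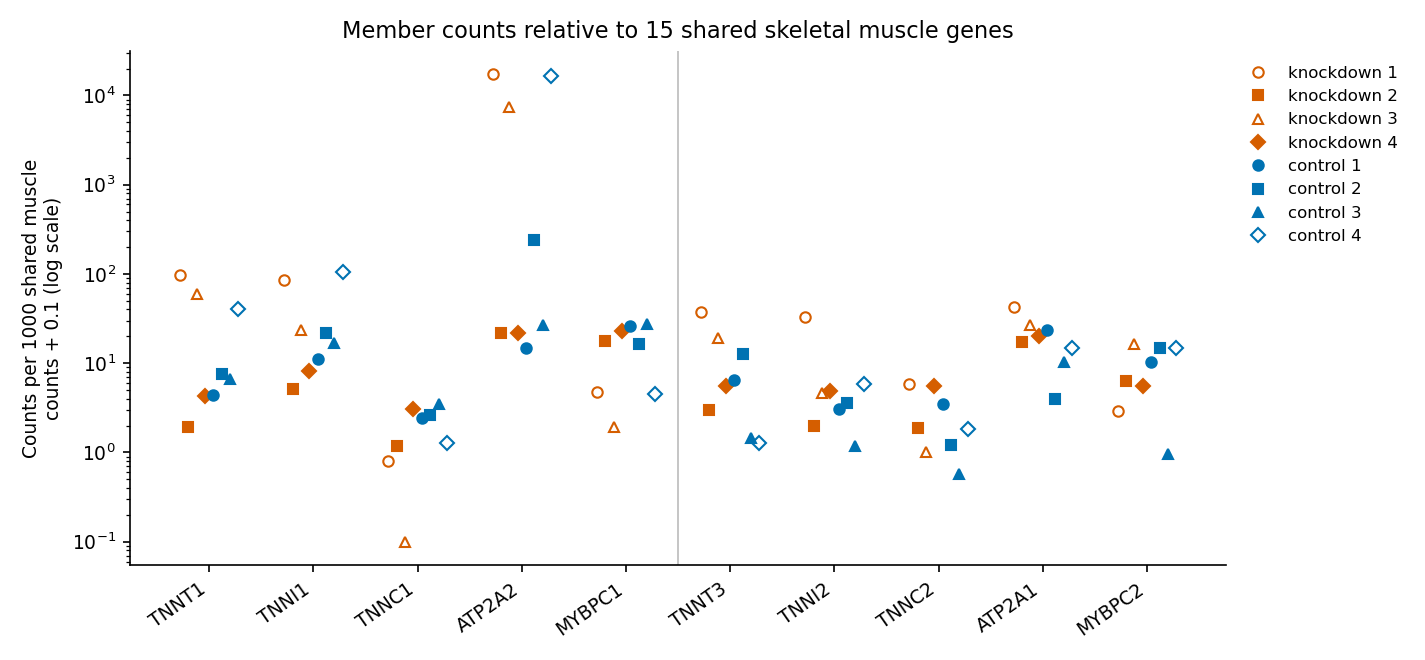
Counts of each member per 1000 counts of 15 shared skeletal muscle genes, plus 0.1, on a log axis, by library; open symbols mark libraries in which some member had under 200 counts. ATP2A2, TNNT1 and TNNI1 lie higher in all open symbols than in the filled ones, and MYBPC1 keeps within 16.1 to 27.4 in the filled ones.

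Across the 5 deeper libraries, MYBPC1 kept closest to the shared muscle genes, with a highest value 1.70 times the lowest. TNNC1 followed at 3.13 times, TNNT1 at 4.08 and TNNI1 at 4.33. Of the fast genes TNNI2 was at 4.34 times, ATP2A1 at 6.12, TNNT3 at 9.27, TNNC2 at 11.4 and MYBPC2 at 16.8. The slow pump ATP2A2, at 16.2 times, was as wide as the widest fast gene. TTN held 63.2% to 79.3% of the shared muscle counts in these libraries. Without it the spread was 2.37 times for MYBPC1, 2.45 for TNNC1, 2.65 for TNNI1 and 2.81 for TNNT1, so MYBPC1 then hardly led. It was 3.93 for TNNI2, 6.65 for TNNT3, 7.99 for ATP2A1, 10.3 for TNNC2, 12.1 for MYBPC2 and 12.98 for ATP2A2.

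In the wider set of fibre-type genes, no gene passed the test between the labels. Of 12 other slow fibre genes, 12 were tested by edgeR and 0 were called, with 12 fitted lower in knockdown (median log2 fold change -2.07). MYH7, the slow myosin heavy chain, averaged 509 ± 736 CPM over knockdown libraries and 6274 ± 7904 over control libraries (SD, n = 4 each). TPM3, listed as the slow tropomyosin, averaged 222 ± 119 over knockdown libraries and 998 ± 1145 over control libraries. It was still at 187, 121 and 198 CPM in knockdown 1, knockdown 3 and control 4, where MYH7 was at 0.565, 0.357 and 0.327. TPM3 thus did not track slow fibre RNA alone. Of 14 other fast fibre genes, 12 were tested and 0 called, with 12 fitted lower (median -2.05). MYH2, the myosin of fast oxidative fibres, averaged 1394 ± 1842 CPM over knockdown libraries and 2905 ± 3977 over control libraries (SD, n = 4 each). PYGM, muscle glycogen phosphorylase, averaged 182 ± 259 over knockdown libraries and 752 ± 866 over control libraries. ACTN3 and PVALB, genes of the fastest fibres, did not pass the filter on low counts and had at most 2.01 and 0.196 CPM in any library. Of 20 calcium handling genes, 4 of them also in the fibre lists, 20 were tested and 0 called, with 17 fitted lower and 3 higher (median -1.88). RYR1, the calcium release channel, had a log2 fold change of -2.03 (SE 1.69), and SLN, sarcolipin, a small inhibitor of the SERCA pumps, of -2.60 (SE 2.41).

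Of 10 cardiac genes 6 were tested and 0 called (median -1.88). TNNI3, the cardiac troponin I, was at most 0.381 CPM in any library and TNNT2, the cardiac troponin T, at most 6.41, beside up to 452 CPM of TNNC1. ACTC1 and MYH6, heart genes also known from skeletal muscle, reached 178 CPM in control 2 and 73.0 in control 1. Of the lists for other cells, 0 members were called by edgeR in any; the medians were -2.03 for 15 shared muscle genes, 1.84 for 14 squamous genes, 0.26 for 7 salivary genes tested, -1.92 for 11 fibroblast genes, -0.32 for 10 smooth muscle genes, -0.06 for 7 endothelial genes and -0.32 for 8 leukocyte genes. Genes of high mean level in some lists ran widely across the libraries, TTN from 17.4 to 97646 CPM, KRT6A from 10.4 to 42476, LCN1 from 0.0971 to 66024 and MUC5B from 0.519 to 60244. The endothelial gene VWF ran from 68.5 to 294 CPM.

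Over the 8 libraries, the genes whose log2(CPM + 1) profile lay nearest to that of the summed fast members were SLN, MYL1, TCAP, ACTN2 and XIRP2, at root mean square distances of 0.57 to 0.62 among 15789 genes. MYL1 is a fast myosin light chain, and TCAP, ACTN2 and XIRP2 are Z-disc or junction proteins of both fibre types. Nearest to the summed slow members, whose profile ATP2A2 dominates where muscle RNA is scarce, were COQ10A, CAP2, RTN2, CLTCL1 and ANKRD39, at 0.26 to 0.36. Each of these 5 had a narrower range than any member but ATP2A2, such as COQ10A from 0.878 to 40.4 CPM.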

How the data were processed

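RNA-seq counts per gene were analysed for 8 libraries, 4 of each label. The authors deposited whole, unnormalised counts for 63241 gene IDs. The submitters' processing notes name STAR, featureCounts, Subread and hg38; annotation, strand setting and versions are not given there. The labels name polyA RNA, while their protocol describes ribosomal RNA depletion. From the deposited counts, CPM of all counts was computed as the printed level. Log2 fold changes come from edgeR 4.0.16 (R 4.3.3), with TMM factors, filterByExpr and the quasi-likelihood test over 21192 genes, Benjamini-Hochberg adjustment and a threshold of 0.05; an SE is the size of the fold change over the root of its F statistic. The fit was also run on simulated data with known changes. Unchanged genes there had the same mean share in every library. The simulation therefore does not show how the fit performs on libraries that differ in muscle, gland and squamous RNA as these do. Pair ratios were tested by exact permutation over all assignments, with Benjamini-Hochberg adjustment by statsmodels 0.14.6. Alternatives were DESeq2 1.42.0, limma-voom (limma 3.58.1), other scalings, no filter, other pseudocounts, a replicate block and leaving out each library. The members and lists were chosen with earlier results of these data known. Named genes are the 10 members, from each other list any gene called and the 2 of highest mean CPM, and the 5 nearest profiles to each summed set. TNNI3, TNNT2, ACTN3, PVALB, ACTA1, CKM, MB, ATP2A3 and MRLN were chosen after their values were seen. Libraries have 30684584 to 61795990 counts, and Wilson intervals cover counting error only. No libraries held identical values.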

Additional observations from a re-analysis of the deposited data

Results flagged for a closer look

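Within the 4 control libraries, control 1 stood far from the others for 2 fast genes. TNNC2 was at 467.4 CPM in control 1 and between 0.115 and 63.2 CPM in the other 3 control libraries, so that the gap took up 0.865 of the group's range. MYBPC2 was at 1389.4 CPM in control 1 and between 0.980 and 115 CPM in the other 3, with a gap of 0.918 of the range. Both exceed the 95% critical value of Dixon's test for 4 samples. Of 32 groups of values examined 2 did so, and chance flags about 5% of groups.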

How the results depend on the processing

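In 16 alternative fits 0 members were called (TNNC2 had no adjusted p under DESeq2), and all 10 were fitted lower in knockdown under DESeq2, limma-voom, RLE factors, library totals, no filter and the replicate block. Without control 1, 4 fast genes were above 0 (TNNT3 0.30, TNNI2 0.53, TNNC2 1.88, MYBPC2 1.08). The same 4 were above 0 without the 2 gland-rich libraries, knockdown 2 and control 1 (TNNT3 0.20, TNNI2 0.54, TNNC2 1.96, MYBPC2 0.55). With the muscle share as a covariate 4 fast genes were above 0 (TNNT3 0.43, TNNI2 0.87, TNNC2 1.10, ATP2A1 0.95). The covariate fit and the fit without the gland-rich libraries were chosen after seeing the data, and the cause was not tested. Leaving out each library in turn, log2 fold changes ran from -3.24 to 0.30 for TNNT3, from -2.88 to 0.53 for TNNI2, from -3.0 to 1.88 for TNNC2 and from -2.73 to 1.08 for MYBPC2. The pair differences ran from -1.74 to 0.17 for troponin T, from -1.53 to 2.07 for the pumps and from -1.85 to 0.39 for the myosin-binding proteins, but from -2.11 to -1.35 for troponin I and from -2.81 to -1.68 for troponin C. The pump difference was -0.20 without the gland-rich libraries. The difference in the summed log2 ratio ran from -1.0 to 1.83 on leaving out each library, and was -0.97 without the pumps, -0.07 without the myosin-binding proteins and -1.17 as a mean of the 5 pairs. Over all genes, edgeR called 1 gene without knockdown 2 and 1 without the gland-rich libraries, and DESeq2 called 146. With the replicate number as a block edgeR called 0 members, and troponin I and C had an adjusted p of 0.313 by an exact sign-flip test, whose smallest unadjusted p is 0.125. Libraries of the same number deviated in opposite directions (correlations -0.642, -0.475, -0.369 and -0.401) and 0 of 4 matched their own number best, so no pairing by number was seen. These deviations include the wide differences in muscle, gland and squamous RNA, so the check cannot exclude a pairing. Depth limits knockdown 1, knockdown 3 and control 4, where 2, 3 and 3 members had under 10 counts.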

Other observations

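ATP2A3, which encodes the SERCA pump of non-muscle cells such as secretory and blood cells, did not follow the fibre pumps. It was at 10.6, 418, 9.44 and 14.9 CPM in knockdown 1 to 4, and at 441, 23.5, 17.9 and 13.4 in control 1 to 4. Its highest libraries, knockdown 2 and control 1, were those with 13.7% and 11.2% of counts in salivary gland genes; their part in this level was not tested.

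MRLN encodes myoregulin, a small inhibitor of SERCA known from mouse skeletal muscle. It was at 20.5, 1.11, 14.6 and 1.26 CPM in knockdown 1 to 4, and at 3.05, 9.37, 3.10 and 6.29 in control 1 to 4. Its highest libraries, knockdown 1 and knockdown 3, were among the 3 with the least shared muscle RNA, the reverse of SLN, which was highest in control 1 at 1183 CPM.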
